A study of Mus musculus with 2 samples.

Results

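Annotated genes of small noncoding RNAs were compared between 2 RNA-seq libraries of mouse CD4+ T cells grown under T helper 17 (Th17) conditions. The genes were the features with an Entrez identifier whose mouse symbol starts with Snora, Snord, Scarna, Mir followed by a number or let, Rnu or Rny, or is Rmrp, Rpph1, Terc or Rn7sk. There were 41 of them among 13056 Entrez features and 24440 features in all. They comprised 23 box H/ACA small nucleolar RNA (snoRNA) genes, 5 box C/D snoRNA genes, 3 genes of Cajal body RNAs (scaRNAs), 2 Rnu genes, Rmrp, Rpph1, Rn7sk, Terc and 4 Mir symbols. RefSeq annotated 39 as small or structured RNAs, and the other 2, Mir17hg and Mir22hg, as long noncoding host transcripts. No Rny or Mirlet gene was analysed here.

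The T cells of both groups came from wild-type C57BL/6 mice of 6 to 8 weeks and were cultured for 48 h. One culture had wild-type antigen presenting cells (WT APCs), and the other had APCs transgenic for OX40L (OX40L-TG APCs), the ligand of OX40, a costimulatory receptor of T cells. The promoter of the transgene is not given in the sources used here. Of each RNA, 1 µg entered a TruSeq library. Each group had 1 library, so every statement compares libraries and no difference has a replicate check. Values are FPKM (fragments per kilobase of transcript, scaled to library size). The 6 T cell markers found summed to 1305 FPKM in the WT-APC library and 1325 FPKM in the OX40L-TG-APC library. The 6 B cell markers summed to 43.8 and 19.2 FPKM, and the 6 myeloid markers to 10.8 and 4.77 FPKM. All 6 B cell markers and 5 of the 6 myeloid markers were lower with OX40L-TG APCs, and none of these 12 was at 0 in either library. The 4 dendritic cell markers summed to 3.97 and 1.22 FPKM, with 1 of them at 0 in a library, the 2 CD8 markers to 7.02 and 6.33 FPKM, and the 2 erythroid markers found to 33.5 and 69.1 FPKM. The part of these cell types in the results below was not tested. In such bulk RNA, fewer cells of a type and less RNA per cell cannot be told apart.

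SnoRNAs guide chemical modification of other RNAs by base pairing. Box H/ACA snoRNAs direct conversion of uridine to pseudouridine, and box C/D snoRNAs direct methylation of ribose, mostly in ribosomal RNA, while scaRNAs do the same for spliceosomal RNAs. Most vertebrate snoRNAs are cut out of introns of host genes, many of which encode ribosomal proteins or translation factors. Rmrp and Rpph1 are the RNA subunits of the RNases MRP and P, which process ribosomal and transfer RNA precursors. Rn7sk encodes 7SK RNA, which holds the transcription elongation factor P-TEFb inactive, and Terc the template RNA of telomerase.

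The results turn on a few short genes, whose sequences are given first because their length sets what a single fragment is worth in FPKM. They were read from GENCODE M21 transcripts (GRCm38) over the interval that RefSeq annotates, from 5′ to 3′. Capitals mark the ACA of box H/ACA genes where it stands just before the last 3 bases (ACANNN at the end), TGATGA and CTGA in the box C/D gene, and bases 2 to 8, the seed, of the mature microRNA. Rnu12 has no capitals.
Snora5c (chr11:6620319-6620419, minus strand): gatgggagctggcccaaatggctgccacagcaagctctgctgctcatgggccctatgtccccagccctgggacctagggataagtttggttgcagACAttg
Snora15 (chr5:129794561-129794676, plus strand): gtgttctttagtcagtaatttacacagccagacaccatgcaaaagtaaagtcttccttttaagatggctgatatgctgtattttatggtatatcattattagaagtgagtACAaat
Snora75 (chr1:86351170-86351285, minus strand): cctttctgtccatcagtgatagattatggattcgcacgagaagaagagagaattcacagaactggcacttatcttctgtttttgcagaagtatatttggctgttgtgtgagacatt
Snora64 (chr17:24720789-24720905, plus strand): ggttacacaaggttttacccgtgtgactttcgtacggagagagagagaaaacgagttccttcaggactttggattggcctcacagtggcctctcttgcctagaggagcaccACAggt
Snora69 (chrX:37082912-37083033, minus strand): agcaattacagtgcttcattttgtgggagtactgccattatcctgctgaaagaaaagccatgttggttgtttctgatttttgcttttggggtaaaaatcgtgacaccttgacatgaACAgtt
Snora52 (chr7:141448803-141448936, plus strand): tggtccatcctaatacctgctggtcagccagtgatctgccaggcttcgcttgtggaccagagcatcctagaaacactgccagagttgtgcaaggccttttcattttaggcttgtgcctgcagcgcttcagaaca
Snora43 (chr2:26637847-26637985, minus strand): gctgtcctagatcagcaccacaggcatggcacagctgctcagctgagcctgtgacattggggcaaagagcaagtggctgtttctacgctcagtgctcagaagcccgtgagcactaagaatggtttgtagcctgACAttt
Snord15b (chr7:99479563-99479707, minus strand): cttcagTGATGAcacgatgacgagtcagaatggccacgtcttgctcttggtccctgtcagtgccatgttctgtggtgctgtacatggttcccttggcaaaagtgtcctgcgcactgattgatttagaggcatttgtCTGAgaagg
Rnu12 (chr15:83149645-83149794, plus strand): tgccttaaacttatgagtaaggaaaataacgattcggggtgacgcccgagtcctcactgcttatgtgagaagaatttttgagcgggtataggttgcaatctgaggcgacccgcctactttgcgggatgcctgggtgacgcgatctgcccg
Mir703 (chr5:98475616-98475636, minus strand): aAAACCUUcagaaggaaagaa

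The motifs were searched on the RNA strand alone. ACANNN ended 15 of the 21 box H/ACA intervals that could be read and 276 of 1507 GENCODE snoRNA transcripts of any kind (18.3%). TGATGA in the first 25 bases together with CTGA in the last 25 was in 2 of 4 box C/D intervals, and in 312 of the 1507 transcripts (20.7%). The intervals are those of RefSeq, often shorter than the GENCODE transcript (Snora15, 116 against 131 bases), and the 1507 transcripts mix kinds. The shares are thus not a like comparison. The mature sequence of Mir703 comes from RefSeq (GRCm38.p6) and is 21 bases of a hairpin gene of 109 bases.

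All 41 genes reached 1 FPKM in at least 1 library. Change was measured as log2((OX40L-TG + 1)/(WT + 1)), and 2-fold was the limit of a call. With OX40L-TG APCs 14 of the 41 were at least 2-fold higher and 2 at least 2-fold lower, against 2.26% and 1.32% of the 10645 Entrez features at 1 FPKM or more. The median change was 0.26 over the 41 genes and 0.11 over all 10645 features. By class, 9 of 23 box H/ACA genes were higher and 2 lower (median 0.33), and 1 of 3 scaRNA genes and both Rnu genes were higher. None of the 5 box C/D genes with Snord symbols (median -0.02) and none of Rmrp, Rpph1, Rn7sk and Terc reached 2-fold. Classes follow the symbols, so Rnu3a, which encodes a box C/D RNA and was called higher, is counted with the Rnu genes. Among the 4 Mir symbols both hairpin genes were higher and neither long host transcript was.

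Called genes were found mostly at the shortest lengths, though not all short genes were called. Of 24 genes under 150 bases, 14 reached 2-fold, with a median absolute change of 1.53. Of 12 genes of 150 bases up to under 300 bases 2 did, with a median absolute change of 0.27, and of 5 genes of 300 bases or more none did, with 0.12. These 2 include Rnu3a, placed here by its RefSeq length of 212 bases although its printed locus has 104. Other Entrez features of 300 bases or more reached 2-fold in 3.41% of 10355 cases, with a median absolute change of 0.19. Just 1 Entrez feature outside the 41 genes had an annotated length under 150 bases, so length and gene class cannot be told apart in this table. Transcript lengths were lacking for 445 Entrez features.

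**Figure D1:**
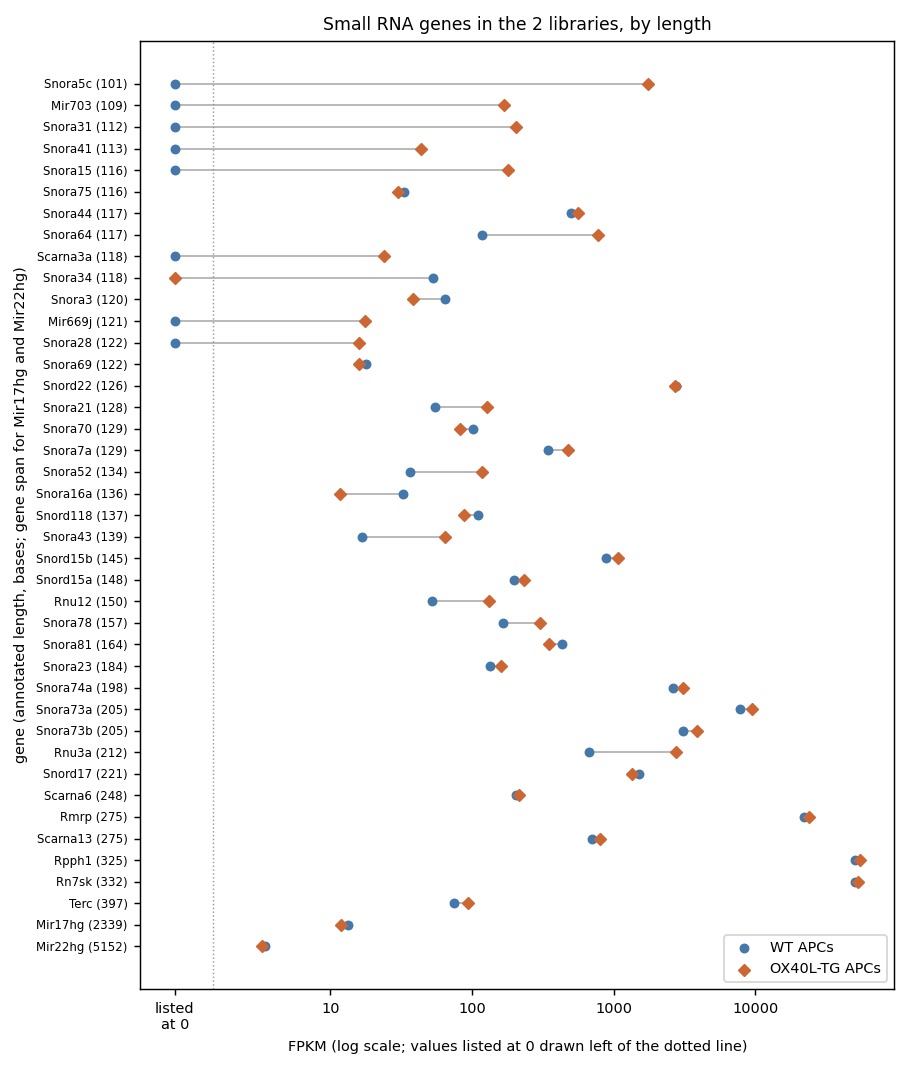
FPKM of each of the 41 genes (log axis) with WT APCs (circles) and OX40L-TG APCs (diamonds), ordered from the shortest (101 bases) to the longest. Each point is 1 library and there are no error bars; the widest gaps and all 9 values listed at 0 belong to genes of 101 to 122 bases.

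The FPKM values of the shortest genes moved in whole steps. Snora28 and Snora69 both have 122 bases and stood at the same 15.99 FPKM with OX40L-TG APCs. Snora15 and Snora75 both have 116 bases, and the value of Snora15 (179 FPKM) was 6.00 times that of Snora75 (29.9 FPKM). Snora44 and Snora64 both have 117 bases, and their ratio was 4.25 (17 to 4) with WT APCs and 1.38 (29 to 21, Snora64 above Snora44) with OX40L-TG APCs. These ratios use no model.

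A curve for the FPKM worth of 1 fragment at each length was then fitted, with Snora75 starting as 1 fragment in both libraries. All 36 values above 0 and under 60 steps came out within 0.1 of a whole number over the genes of 101 to 150 bases. The curve was chosen to bring them there. Gm12238, a snoRNA gene of 124 bases that was not used in the fit, came out at 2 and 4 steps within the same tolerance. One step with OX40L-TG APCs was worth 1671 FPKM at 101 bases, 29.8 FPKM at 116 bases, 15.98 FPKM at 122 bases and 2.93 FPKM at 150 bases, and a step with WT APCs was worth 1.12 times as much. The steps are read here as fragments. Over the 25 genes of at most 150 bases they summed to 613 fragments in the WT-APC library and 842 in the other, and 14 of the 25 had at most 10 fragments in each library.

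**Figure D2:**
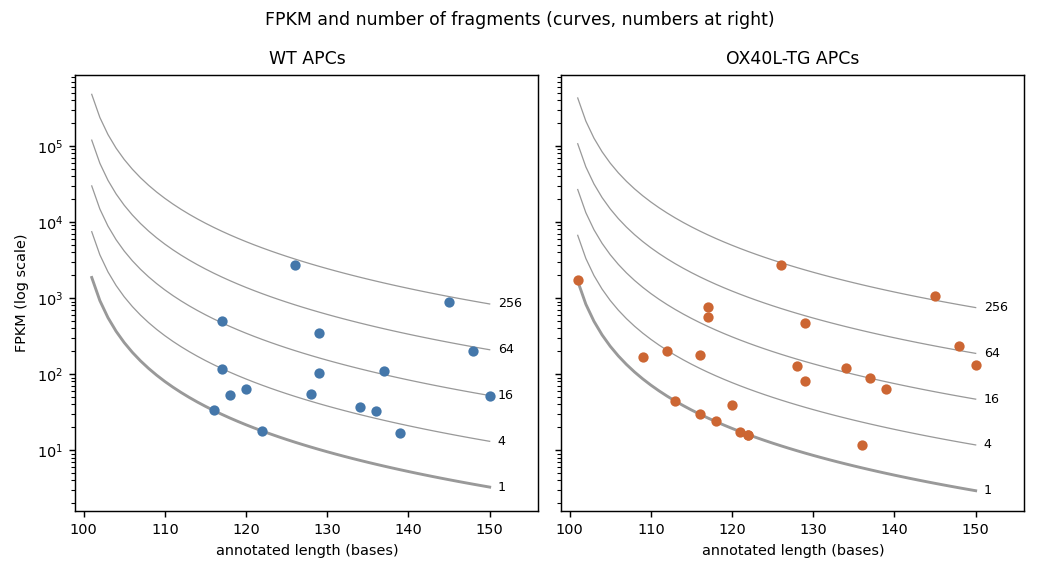
FPKM (log axis) against annotated length for the genes of 101 to 150 bases with a value above 0, by library. Curves give the FPKM of 1 fragment and of successive 4-fold multiples of it; the lowest points lie on the curve of 1 fragment, which falls from 1671 FPKM at 101 bases to 2.93 FPKM at 150 bases with OX40L-TG APCs.

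Listed at 0 in exactly 1 library were 9 of the 41 genes, against 0.113% of the 10645 features, which is 12 features in all. At 0 with WT APCs were 8 (background 0.0845%) and at 0 with OX40L-TG APCs was 1 (background 0.0282%). All 9 have 101 to 122 bases. The 12 features include these 9, and outside the 41 genes the count was 3 of 10604. The background shares are not a like comparison, because the filter at 1 FPKM acts by length. At 101 to 122 bases a single fragment passes it, being worth 15.98 FPKM or more, and on longer genes a fragment is worth less. Before the filter, 386 other Entrez features of 300 bases or more were at 0 in the WT-APC library and 481 in the other, zeros in both included. Snora5c had the highest value opposite a 0, 1741 FPKM with OX40L-TG APCs, and it was a single fragment on an interval of 101 bases. GENCODE annotates Snora5c with 136 bases, and 1 fragment on that length would read as 5.85 FPKM. The 0 with WT APCs allows up to 3 fragments, which would be 5593 FPKM at 101 bases.

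Most of the other values opposite a 0 were as thin. Snora41 (44.0 FPKM), Scarna3a (23.8 FPKM), Mir669j (17.5 FPKM) and Snora28 (15.99 FPKM) were at 1 fragment each with OX40L-TG APCs. Mir703 (169 FPKM) was at 2 fragments there, and Snora34 at 2 fragments with WT APCs (53.0 FPKM). For these 7 genes, Snora5c included, both libraries were at or under the 3 fragments that a 0 allows. Snora31 (204 FPKM) was at 4 fragments with OX40L-TG APCs, 1.18 times what 3 fragments with WT APCs would be. Snora15 (179 FPKM) was at 6 fragments, 1.79 times what 3 fragments with WT APCs would be. Both folds take the 4 and 6 fragments as exact, so they are not lower limits. No interval was computed for genes listed at 0, so a difference beyond counting error was not assessed for Snora31 and Snora15.

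Box H/ACA genes with values in both libraries held the largest difference beyond counting error. Snora64 (Entrez 104366, within Rps2) stood at 118 FPKM with WT APCs and 771 FPKM with OX40L-TG APCs, which are 4 and 29 fragments. The ratio was 6.51, with an exact interval of 2.28 to 25.4. Intervals here are at 95% and cover counting error only, not the variation between cultures, and they are not adjusted for the number of genes.

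Snora52 (Entrez 100217419, within Rplp2) stood at 36.8 and 118 FPKM, WT first, from 5 and 18 fragments, a ratio of 3.22 (1.15 to 11.1). Snora43 (Entrez 100306955) stood at 16.6 and 64.5 FPKM from 3 and 13 fragments, a ratio of 3.88 (1.07 to 21.2). These intervals exclude 1, but that of Snora43 did not after scaling by 1.09, the median ratio over well-expressed genes (0.977 to 19.4). Snora21, within the ribosomal protein gene Rpl23, was called higher at 54.8 and 128 FPKM, though from 5 and 13 fragments its interval (0.779 to 8.35) included 1. Snora16a was called lower at 32.7 and 11.7 FPKM, from 5 and 2 fragments, and its interval (0.0341 to 2.19) included 1 as well.

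The other short box H/ACA genes with values in both libraries differed by less than counting error. Snora44 stood at 503 and 558 FPKM from 17 and 21 fragments, and it lies in the same host transcript, Snhg12, as Snora16a. Snora7a stood at 347 and 475 FPKM from 34 and 52 fragments, a ratio of 1.37 (0.873 to 2.18). Snora70 stood at 102 and 82.2 FPKM from 10 and 9 fragments, and Snora3 at 64.7 and 38.7 FPKM from 3 and 2. Snora75 (33.2 and 29.9 FPKM) and Snora69 (17.8 and 15.99 FPKM) had 1 fragment in each library, so that their intervals (0.0114 to 70.3) say almost nothing.

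For genes over 150 bases a step is smaller than at 150 bases, which gives a least number of fragments and, from it, an interval no narrower than the counts allow. Snora73a and Snora73b encode 2 copies of U17, an RNA that acts in cleavage of ribosomal RNA precursors in place of guiding modification. Snora73a stood at 7779 and 9403 FPKM, with a ratio of 1.21 (1.15 to 1.28), and Snora73b at 3079 and 3864 FPKM, with a ratio of 1.25 (1.15 to 1.37). Both have 205 bases and differ at 7 positions (96.6% identity), so how reads were split between them is uncertain. Snora74a stood at 2605 and 3078 FPKM, with a ratio of 1.18 (1.08 to 1.30), which became 1.08 (0.986 to 1.19) with the median ratio set to 1.

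Snora78 stood at 166 and 299.9 FPKM from at least 50 and 102 fragments, a ratio of 1.80 (1.29 to 2.62), and of 1.65 (1.18 to 2.40) with the median ratio set to 1. Its change of 0.85 did not reach 2-fold. Snora81 stood at 434 and 351 FPKM, with a ratio of 0.808 (0.625 to 1.04), which became 0.739 (0.572 to 0.955) with the median ratio set to 1. Snora23 stood at 134 and 160.3 FPKM, with a ratio of 1.20 (0.789 to 1.87).

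The 5 box C/D genes with Snord symbols had changes from -0.33 to 0.27, against a median of 0.11 over all features. Snord22, an RNA of the Snhg1 transcript, was the highest at 2752 and 2716 FPKM, from about 216 and 238 fragments, a ratio of 0.987 (0.818 to 1.19). Snord15b stood at 885 and 1069 FPKM from about 217 and 292 fragments, a ratio of 1.21 (1.01 to 1.44), and the interval included 1 with the median ratio set to 1 (0.923 to 1.32). Snord15a, in the same host gene Rps3, stood at 199 and 233 FPKM, with a ratio of 1.17 (0.813 to 1.69). Snord118 encodes U8, which is needed for processing of the large subunit RNA, and stood at 111 and 88.5 FPKM from 18 and 16 fragments, a ratio of 0.795 (0.380 to 1.65). Snord17 stood at 1503 and 1354 FPKM, with a ratio of 0.901 (0.789 to 1.03), or 0.824 (0.722 to 0.939) with the median ratio set to 1.

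**Figure D3:**
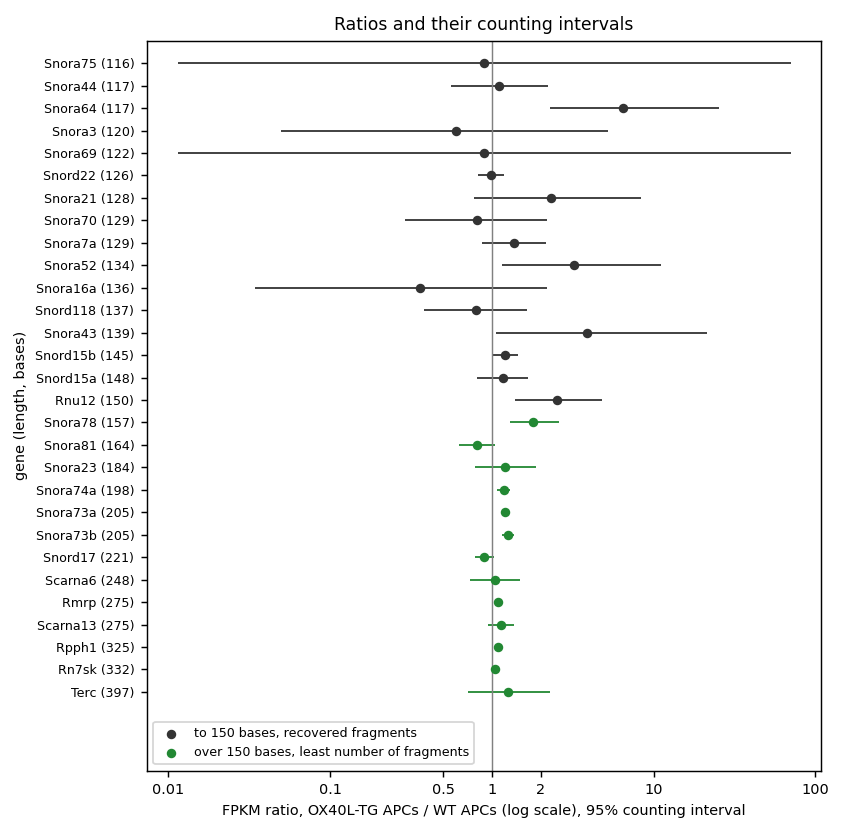
FPKM ratio (OX40L-TG APCs over WT APCs, log axis) with its 95% counting interval for the 16 genes of at most 150 bases with values in both libraries (dark) and 13 longer small RNA genes (green, from least fragment numbers), ordered by length. Intervals span 0.0114 to 70.3 at 1 fragment in each library and 1.02 to 1.07 for Rn7sk, and Snora64 lies farthest from 1.

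Of the 16 genes of at most 150 bases with values in both libraries, 5 had an interval that excluded 1, all of them higher with OX40L-TG APCs: Snora64, Snora52, Snora43, Snord15b and Rnu12. With the median ratio set to 1, 3 of them remained, Snora64, Snora52 and Rnu12. Among 13 longer small RNA genes 7 intervals excluded 1, all higher, and 6 did so after that scaling, in either direction. Intervals were not computed for the other features, so these counts have no share over all features beside them. Intervals narrow as fragment numbers rise, so the counts are not read as particular to small RNA genes. Over all 41 genes 29 (70.7%) had a higher value in the OX40L-TG-APC library as deposited, close to the 68.3% of the 10645 Entrez features. After scaling these were 25 (61.0%) and 49.8%. The 49.8% follows from the scaling, which sets the median ratio of well-expressed genes to 1. Both the 29 and the 25 include the 8 genes listed at 0 with WT APCs.

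Both Rnu genes were called higher. Rnu12 (Entrez 104307) encodes U12, the small nuclear RNA that recognises the branch point of minor introns. It stood at 52.3 and 132 FPKM from 16 and 45 fragments, a ratio of 2.52 (1.40 to 4.78), and of 2.31 (1.28 to 4.37) with the median ratio set to 1. Its printed locus holds 6 Entrez features. A separately assembled feature that carries the same Entrez identifier stood at 1.19 and 0.737 FPKM.

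Rnu3a encodes U3, a box C/D RNA needed for cleavage of the ribosomal RNA precursor. It stood at 674 and 2738 FPKM, with a ratio of 4.06. The locus printed for it, chromosome 10, 40258576 to 40258679, has 104 bases, whereas RefSeq annotates 212 bases (40258468 to 40258679). At 104 bases these values would be 1.84 and 8.36 steps, which are not whole, and the length used for it is not given in the sources used here. U3 has several gene copies in the mouse, so the value is uncertain and no interval is given.

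The scaRNA genes with values in both libraries did not differ beyond counting error. Scarna13 stood at 705 and 799 FPKM, with a ratio of 1.13 (0.948 to 1.37). Scarna6 stood at 204 and 214 FPKM, with a ratio of 1.05 (0.731 to 1.49). Scarna3a was the one called, from the single fragment given above.

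Rn7sk, Rpph1 and Rmrp were the 3 highest of all 13056 Entrez features in both libraries. Together they made up 19.3% of the summed FPKM of all features with WT APCs (19.5% in the other library), and 84.4% and 80.8% of the sum over the 41 genes. Rn7sk stood at 50763 and 53075 FPKM, with a ratio of 1.05 (1.02 to 1.07), which turned to 0.957 (0.937 to 0.978) with the median ratio set to 1. Rpph1 stood at 50463 and 54784 FPKM, with a ratio of 1.09 (1.06 to 1.11), and of 0.994 (0.973 to 1.02) after scaling.

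Rmrp stood at 22153 and 24039 FPKM, with a ratio of 1.09 (1.05 to 1.12), and of 0.993 (0.962 to 1.03) after scaling. Relative to well-expressed genes Rpph1 and Rmrp thus did not differ beyond counting error, and Rn7sk was slightly lower in the OX40L-TG-APC library. Terc stood at 74.8 and 93.6 FPKM, with a ratio of 1.25 (0.708 to 2.29).

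MicroRNA loci were represented by little. The hairpin genes Mir703 and Mir669j were at 0 with WT APCs and at 2 and 1 fragments with OX40L-TG APCs, as given above. These rows describe hairpin genes of 109 and 121 bases and not the mature microRNAs. The long transcript Mir17hg, which carries the miR-17-92 cluster, stood at 13.3 and 11.9 FPKM, a change of -0.14. Mir22hg, which carries miR-22, stood at 3.46 and 3.29 FPKM, a change of -0.05.

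A host gene in the same strand and in the table was found for 29 of the 39 small RNA genes, 26 different hosts in all. Host changes ran from -1.49 to 0.88 with a median of 0.10, and 1 host reached 2-fold, whereas 12 of the 29 small RNA genes did. For 15 of the 29 pairs the small RNA gene lay within 0.5 log2 of its host. Pairs of unrelated genes were not counted, and a gene that changes little lies this close to most hosts, so this is not read as agreement. Of the hosts of genes at 0 in 1 library, Tbrg4, which holds Snora5c, stood at 28.4 and 27.4 FPKM, and Cct6a, a chaperonin subunit gene that holds Snora15, at 184 and 223 FPKM. Other features of the table share many of these loci, so a host value may be a part of the host's signal.

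The host with the highest change held the small RNA with the highest ratio between values above 0. Rps2, a ribosomal protein gene of the small subunit and the host of Snora64, stood at 182 and 335 FPKM, with a ratio of 1.84 against 6.51 for Snora64. Snora78 lies next to it on the opposite strand, in Snhg9, which was the host that reached 2-fold, at 4.88 and 1.09 FPKM, in the direction opposite to Snora78. The interval of Snora78 also lies within the span that GENCODE gives Rps2, and strand handling is not given in the sources used here, so reads of overlapping genes on the opposite strands cannot be told apart. For Snora52, the host Rplp2 stood at 47.98 and 57.7 FPKM, with a ratio of 1.20.

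**Figure D4:**
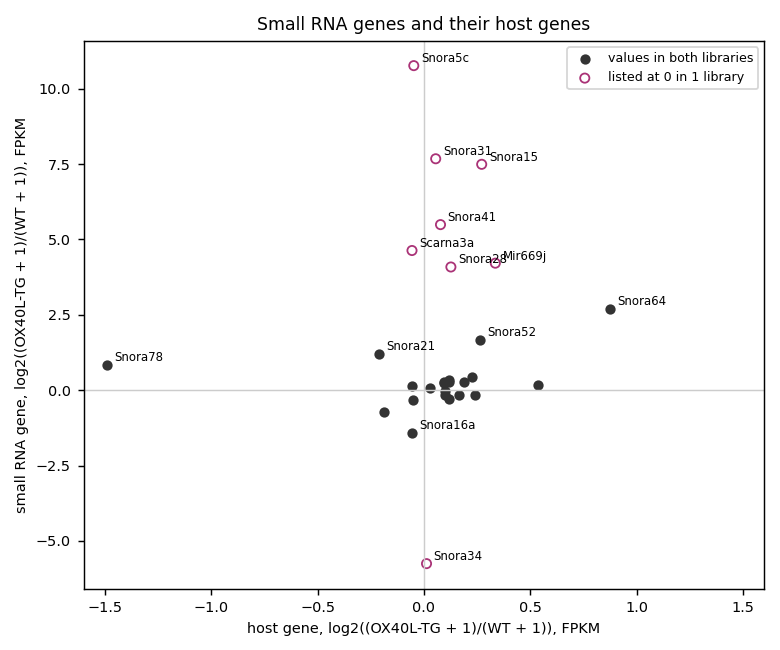
Log2 change of 29 small RNA genes (vertical axis) against that of their host genes (horizontal axis), both as log2((OX40L-TG + 1)/(WT + 1)) in FPKM from the same 2 libraries; open circles mark genes listed at 0 in 1 library. Hosts span -1.49 to 0.88 while the small RNA genes span -5.75 to 10.8, and Snora64 with Rps2 is at the right.

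Genes of the proteins that work with these RNAs, and noncoding host genes, were counted in lists. Across 11 lists, 102 different genes reached 1 FPKM, of which 0 were higher and 1 lower by 2-fold or more, counts near the 2.26% and 1.32% of all features, and their median change was 0.07 against 0.11. That gene was Nolc1, which encodes a nucleolar and Cajal body protein and stood at 56.8 FPKM with WT APCs and was listed at 0 with OX40L-TG APCs, so no fold is given. An exact 0 for such a gene can be a failed estimate.

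The 6 box H/ACA protein genes ran from -0.12 to 0.11 (median 0.07), with Nop10 at 108 and 113 FPKM and Nhp2 at 107 and 112 FPKM. Dkc1, which encodes the pseudouridine synthase dyskerin, stood at 45.9 and 42.2 FPKM. The 11 box C/D protein and assembly genes had a median of 0.07, with Nop56 at 101 and 106 FPKM and Ruvbl2 at 92.6 and 118 FPKM. The 7 Cajal body genes, Nolc1 included, had a median of 0.06, and Smn1 stood at 28.1 and 28.99 FPKM.

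The 14 spliceosomal protein genes had a median of 0.22, with 12 above the median of all features, and Snrpb stood at 288 and 330.5 FPKM and Snrpd2 at 171 and 206 FPKM. The 13 genes of small nuclear RNA transcription and 3′ end formation had a median of -0.06, with Ints11, the cleaving subunit of Integrator, at 43.1 and 53.2 FPKM and Gtf3c1 at 39.1 and 42.7 FPKM. The 10 RNase P and MRP protein genes had a median of 0.01, with Rpp21 at 50.7 and 58.9 FPKM and Pop4 at 44.3 and 47.6 FPKM. The 7 genes of the 7SK particle and P-TEFb had a median of 0.01, with Ccnt1, a cyclin of P-TEFb, at 31.2 and 31.4 FPKM and Larp7 at 26.4 and 26.7 FPKM.

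The 14 microRNA processing and Argonaute genes had a median of -0.09 and 2 lay above the median of all features. Their highest were the RNA helicase genes Ddx5 (237 and 214 FPKM) and Ddx17 (146 and 146 FPKM), and Prkra, a Dicer partner, changed most (3.10 and 6.55 FPKM, a change of 0.88). The telomerase list (5 genes, median 0.19) and the Y RNA protein list (4 genes, median 0.25) held none at 2-fold. In the telomerase list Tert stood at 1.10 and 1.84 FPKM and Parn at 10.7 and 13.5 FPKM, and in the Y RNA list Ssb stood at 153 and 147 FPKM and Ncl at 71.2 and 76.3 FPKM. The 13 noncoding host genes had a median of 0.02, with Zfas1 at 117 and 141 FPKM and Snhg1 at 115 and 124 FPKM, and Snhg6 changed most (74.5 and 99.4 FPKM, a change of 0.41).

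None of the 41 genes was among the 398 rows of the authors' deposited table of differing genes. With 398 rows against 24440 features in all, this absence is near the share over all features. It is no result about the 41 genes. Transcript lengths were found for 389 of those rows. The shortest belonged to H2ac13, with 393 bases, and no row of the authors' deposited table had a value of 0.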

How the data were processed

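For every feature the authors deposited 1 FPKM value per library (fragments per transcript kilobase, scaled by library size), made with TopHat2 and Cuffdiff on mm9, per the submitters' processing notes. Of the values above 0 in that table, 42.3% (WT APCs) and 41.0% (OX40L-TG APCs) have 7 or more digits, against at most 6 in the authors' deposited comparison table, and 99.0% and 99.9% of these end in 5. For the 398 genes in both tables, the full table's values are 1.02 and 1.00 times those of the authors' deposited comparison table (medians). A printed FPKM may thus be a mean of several program outputs and not a single one, which is not given in the sources used here. The comparison table, per the file headers, adds a log2 ratio and a p-value for each gene it lists, and neither was used in a calculation here. Versions, gene models, strand and multi-mapping handling are not given in the sources used here. Printed loci overlapped the GRCm38 gene for 99.7% of the 13030 Entrez features found in RefSeq, so GRCm38 annotation was used and mm9 coordinates were not.

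Change was log2((OX40L-TG + 1)/(WT + 1)) of FPKM for features whose larger value was at least 1 FPKM, and a call needed 2-fold. With 1 library per group no test was run. The FPKM worth of 1 fragment was fitted to genes of at most 150 bases with fragments of at least 100 bases, leaving out Rnu3a and values of 60 or more steps. A number of steps within 0.1 of a whole number was called whole. Intervals are 95% exact Clopper-Pearson intervals of these fragment numbers. The scripts (Python 3.11.15, scipy 1.17.1) were tested on simulated data. The gene set, the lists and the rule for named genes (the 3 highest per class, the 8 highest and 8 lowest changes, and genes listed at 0 in 1 library) were chosen with earlier results of these data known. All 41 genes are named.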

Additional observations from a re-analysis of the deposited data

How the results depend on the processing

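No paired analysis was possible because each group had 1 library, and for the same reason no library could be left out. Calls of single members, 14 higher and 2 lower, were the same with a pseudocount of 0.1 or 5 FPKM, no filter, a filter at 10 FPKM (40 members kept), the median ratio of well-expressed genes set to 1, and equal totals. Length and fragment number moved the counts. Among members of at least 150 bases 2 were higher, 0 lower and 0 at 0 in exactly 1 library. Among members with at least 10 fragments in the libraries together or over 150 bases, a choice made after seeing the data, these counts were 6, 0 and 0. Rnu3a is among the 2 higher genes of at least 150 bases only by its RefSeq length of 212 bases, and the length used for it is unknown. That length also placed Rnu3a in the second set, since no fragment number was given for it. Among the 4 members with a locus of their own they were 0, 0 and 0, with a median log2 change of 0.032. Setting the median ratio to 1 took the median of all members to 0.13, of box H/ACA genes to 0.20, of box C/D genes to -0.15 and of the Mir symbols to 1.97. The Mir median, over 4 unlike genes, was also 3.70 and 1.07 with pseudocounts of 0.1 and 5 FPKM and 4.21 with the filter at 10 FPKM. Depth limited the genes of 101 to 122 bases most, where 1 fragment was worth 15.98 to 1671 FPKM with OX40L-TG APCs.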

Other observations

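Small RNA genes outside the symbols described above were also in the table. Gm12238, annotated as a small nucleolar RNA of 124 bases, stood at 29.96 FPKM with WT APCs and 53.7 FPKM with OX40L-TG APCs, which are 2 and 4 fragments, a ratio of 1.79 with a counting interval of 0.257 to 19.8. Vaultrc5, the gene of the RNA of the vault particle, has 345 bases and stood at 25.5 and 34.1 FPKM, a ratio of 1.33.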
